A study of Mus musculus with 6 samples.

Results

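Of the 17554 genes of the deposited table, 60 had a lower RNA level in every corneal epithelial sample that lacked *Rela* than in any control sample, by a fixed margin. They were the genes with a mean FPKM of at least 2 over the control samples and a highest mutant FPKM of at most 0.7 times the lowest control FPKM. FPKM is the number of sequenced fragments scaled to transcript length and to the total of the sample, so that levels of different genes can be set side by side. The level threshold kept 9867 genes, and 68 of these met both thresholds. The deleted gene *Rela* and 7 more genes (*Nov*, *Aldh1a1*, *Cyp26b1*, *Cyp2b19*, *Cyp4f15*, *Cyp4a12a* and *Krt8*) were left out by name. Since the genotype difference itself chose the 60 genes, their differences are given as a description and support nothing on their own.

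RNA came from the epithelial layer of the cornea of 3 mutant mice (*Krt14-Cre; Rela* f/f, labelled Rela-/-) and 3 control mice (labelled WT), all 2 months old and of the C57BL/6 strain, and was sequenced in bulk, with all cells of a sample read together. Cre was driven by the keratin 14 promoter, which is active in corneal and limbal epithelium and, per the study, also in conjunctiva, meibomian gland, skin and oral mucosa. The deletion is therefore not limited to the cornea and spares cells that never use this promoter. In bulk RNA, fewer cells of a type and less RNA per cell cannot be told apart. The 3 samples of a genotype were independent biological samples per the study's methods.

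RelA is a subunit of the canonical NF-κB transcription factor, which inhibitors hold in the cytoplasm until a signal such as TNF or a microbial product releases it to the nucleus. There it switches on cytokines, survival genes and its own inhibitors, among them *Tnfaip3*, so that the response limits itself. The corneal epithelium is the stratified outer layer of the eye, and its cells hold large amounts of enzymes that remove aldehydes and other reactive compounds made by light and oxygen.

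*Rela* (GRCm38 chromosome 19, 5635891 to 5649631) stood at 36.5, 34.7 and 33.4 FPKM in controls and at 4.93, 5.53 and 5.72 FPKM in mutants, so each library matched its label. Each sample summed to between 19492942 and 19733834 expected counts, and 3 counts equalled 0.152 to 0.154 CPM, a limit that covers counting error only. The lowest control count of any of the 60 genes was 49, in *Gng13*, and 4 genes had a control sample under 100 counts. Summed FPKM of 12 corneal epithelial markers, led by *Krt12*, was 52469.7 to 57333 in control and 48586 to 52292 in mutant samples. *Krt14*, a member of that list and the source of the promoter that drives Cre, rose from 203, 149.8 and 181 FPKM in controls to 2204, 1579.6 and 1474 in mutants, and *Clu* from a mean of 213 to one of 499.7, both called higher by edgeR. *Upk1b* (mean FPKM 908 in controls and 733 in mutants) and *Aldh3a1* (12918 and 10871) were called lower, and the other 8 of the 12 were not called. Several defining markers of other cells were near 0: *Ptprc* of leukocytes reached at most 0.15 FPKM, *Kera* of keratocytes 0.07, *Pecam1* of vessels 0.23 and *Muc5ac* of goblet cells 0.01. The sum over 13 immune cell markers was 89.5 to 99.2 in controls and 315 to 1792 in mutants, of which *S100a9* gave 1401, 273 and 201 in mutant samples 1, 2 and 3 and at most 6.51 in controls. *S100a8* gave 264, 49.4 and 32.0 in mutant samples 1, 2 and 3. *Itgax*, *Csf1r* and *Cd3e* of the list were at most 0.22 FPKM in every sample, whereas *Lyz2* and *Tyrobp* reached 1.17 and 1.23 in mutant sample 1. *Itgam* (63.9 to 67.2 FPKM in controls and 51.0 to 94.8 in mutants) and *Cd68* (17.3 to 21.8 and 22.1 to 24.5) made up most of the control sum. Among stromal markers *Dcn* was called higher by edgeR (log2 fold change 4.17, adjusted p = 5.07e-03), reaching 1.80 FPKM in mutant sample 1. *Lum*, *Col1a1*, *Col1a2* and *Col3a1* had higher mutant means but stayed under 1 FPKM in every sample. *Kera* and *Ptgds* had lower mutant means, and *Pdgfra* was called lower (-0.78, adjusted p = 4.96e-03 from edgeR). A sum of 8 conjunctival and goblet markers, mostly *Krt13*, was 1300 to 1527 in controls and 1005 to 1099 in mutants. None of the 60 genes is in a marker list, and the part of these shifts in the values below was not tested.

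The 60 genes were of moderate level in control corneal epithelium. Their control means ran from 2.08 FPKM (*Agbl3*) to 516 FPKM (*Adh7*) with a median of 10.3, beside 12.6 for the 9867 genes at the level threshold. Over 100 FPKM there were 3 genes, between 10 and 100 FPKM 28, between 5 and 10 FPKM 10, and under 5 FPKM 19. *Adh7*, *Ptgr1*, *Ces1d* and *Gsta3*, all enzymes, made up 61.0% of the FPKM of the 60 genes, which together took 0.413% of all FPKM in the control samples. The mutant mean was 26.1% (*Tppp3*) to 66.1% (*Ripk2*) of the control mean, with a median of 53.7% beside 99.8% for the 9867 genes. It was at most 50% of control in 19 genes, between 50 and 60% in 27 and above 60% in 14.

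**Figure D1:**
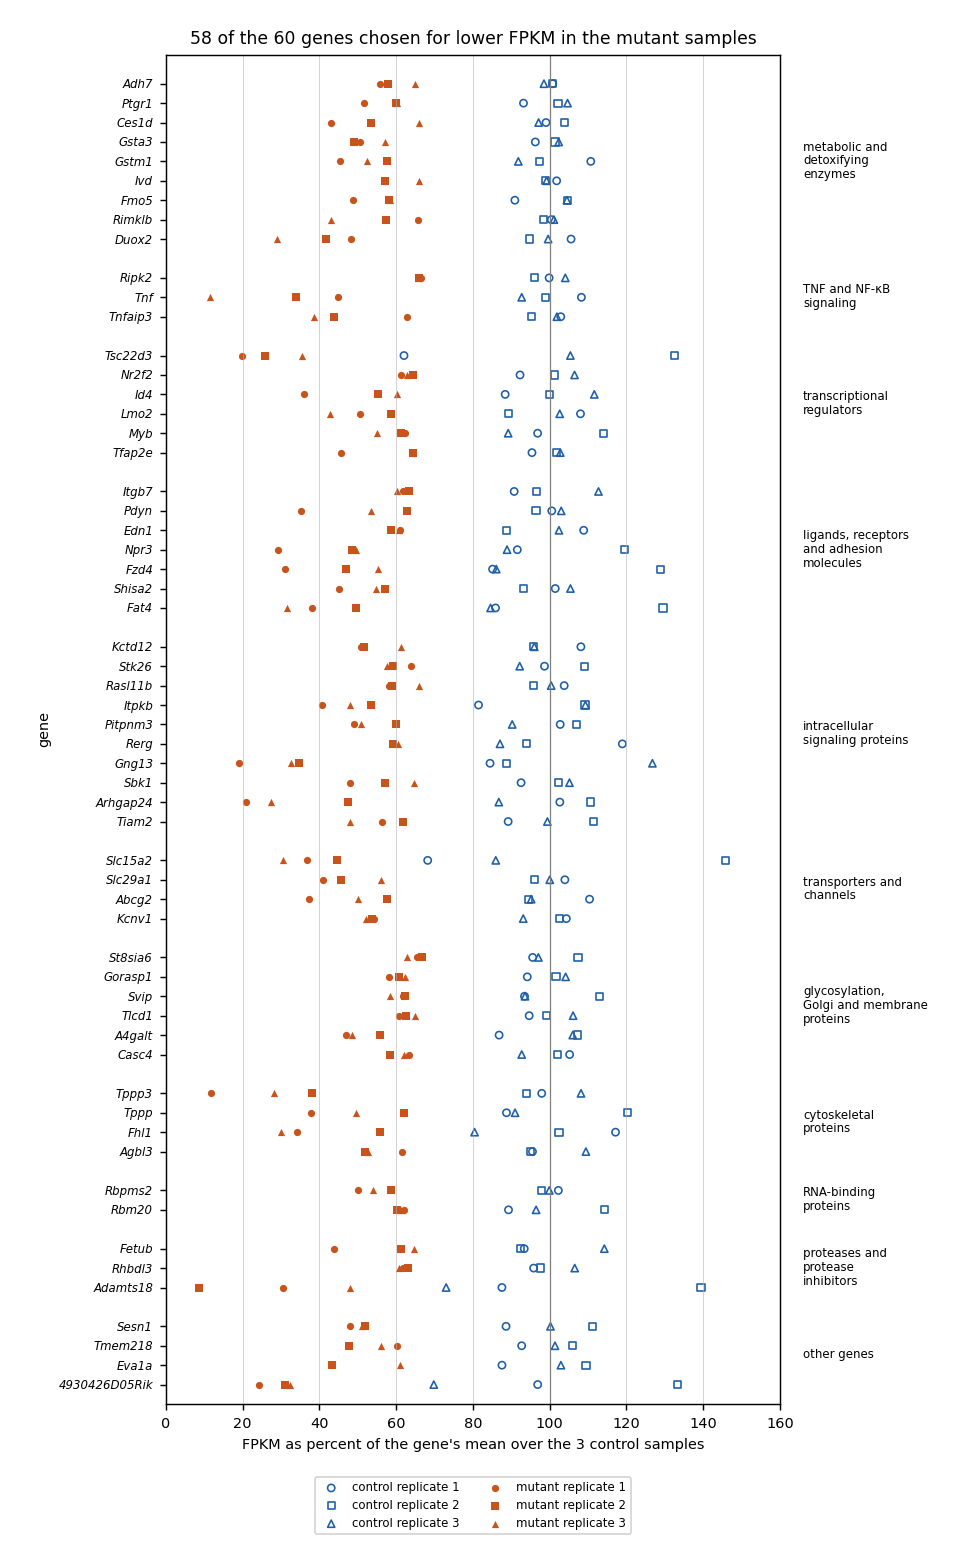
FPKM of 58 of the 60 genes in each of the 6 samples as a percent of the gene's mean over the 3 control samples (x axis), with genes (y axis) grouped by role and ordered by control mean within a role; open blue symbols are control and filled orange symbols mutant samples. The groups do not overlap in any gene drawn because the rule required it. Mutant replicate 1 (filled circle) is the lowest mutant sample in 36 of the 60 genes and in 6 of the 9 enzymes. It is the lowest in none of the 3 TNF and NF-κB signaling genes, of which *Ripk2* is nearly equal in all 3 mutants.

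**Figure D2:**
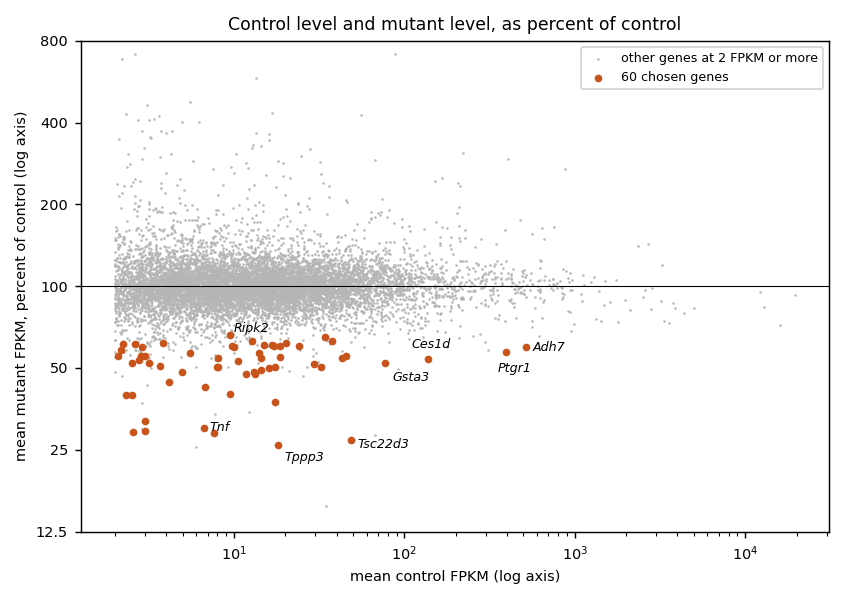
Mean control FPKM (x axis, log scale) and mean mutant FPKM as a percent of control (y axis, log scale) for the 60 chosen genes in orange and the other genes at 2 FPKM or more in grey, with 12 grey genes outside the plotted range. The chosen genes lie between 26.1% and 66.1% of control at all levels up to 516 FPKM.

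By the quasi-likelihood test of edgeR (p-values adjusted after Benjamini and Hochberg), all 60 genes passed the filter on low counts and all 60 were called lower at an adjusted p of 0.05 or less, where 5.42% of the 12667 genes tested were called lower and 7.82% higher. The rule used the same contrast, so nothing follows from that count. With the thresholds of the study's methods, a fold of 2 or more and an adjusted p not above 0.001, 2 of the 60 genes were called lower (*Slc29a1* and *Sesn1*), where 0.0553% of all genes were called. That count rests on the method, with 18 genes by DESeq2, 11 without the filter on low counts, 6 with a replicate block, 0 or 1 by limma and 0 to 4 with a sample left out. The median log2 fold change of the 60 genes was -0.90, against -0.00 over all genes tested.

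The samples of a group spread a little more in these genes than in others. The median coefficient of variation was 8.01% over control samples and 11.9% over mutant samples, beside 6.80% and 8.53% for the 9867 genes. The median gene stood at 96.0%, 102% and 99.97% of its control mean in control samples 1, 2 and 3, and at 48.9%, 57.3% and 55.2% in mutant samples 1, 2 and 3. Mutant sample 1, which also had the most *S100a9*, was the lowest mutant sample in 36 genes, mutant sample 3 in 17 and mutant sample 2 in 7. The differences were largest relative to the spread in *Ripk2*, *Rbpms2*, *Adh7*, *Kcnv1* and *Gsta3*, and *Slc15a2*, *Tsc22d3* and *Adamts18* had the widest control spread, with coefficients of variation of 40.7%, 35.6% and 34.9%.

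The thresholds were also applied with a pair of samples left out. Each pair of 1 control and 1 mutant sample was left out in turn, the same thresholds and exclusions were applied to the other 4 samples, and the FPKM ratio of mutant to control was read in the pair left out. The 9 choices, each looser than the full rule for having fewer samples, held 96 to 152 genes. In the pairs left out, 90.3% to 96.1% of the chosen genes were below a ratio of 1, where 42.6% to 55.4% of all genes at the level threshold were. A ratio of at most 0.7 was found in 53.1% to 77.5% of the chosen genes and in 3.16% to 6.48% of all genes. The 9 choices share samples with each other and are not independent. The thresholds and exclusions were chosen with earlier results of all these samples known, so a pair left out is not a new sample. These shares are a description and test nothing.

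**Figure D3:**
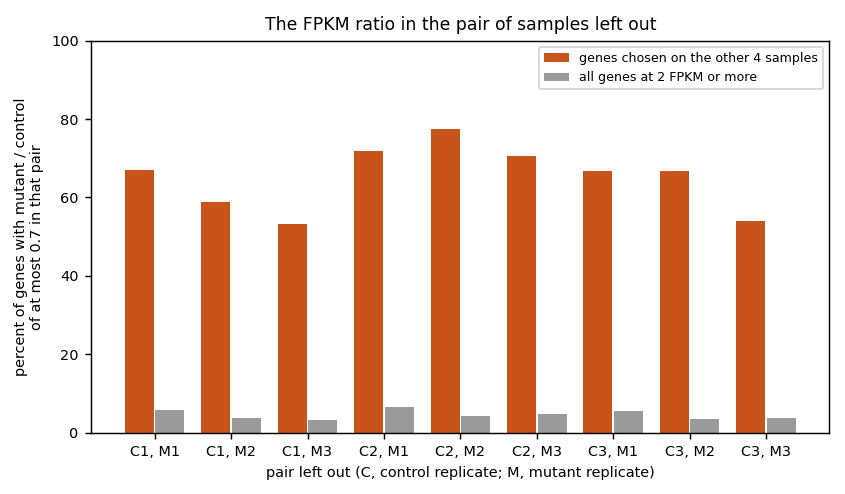
For each of the 9 pairs of samples left out (x axis), the percent of genes with a mutant to control FPKM ratio of at most 0.7 in that pair (y axis): orange bars are genes chosen on the other 4 samples, grey bars all genes at 2 FPKM or more on the controls used. The orange bars stand at 53.1% to 77.5% and the grey bars at 3.16% to 6.48%. The thresholds were chosen with earlier results of all these samples known, so the bars are a description.

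The thresholds cut through a continuous range. Just inside the ratio of 0.7 stood *Itgb7* (0.6995), *Myb* (0.6992) and *Fetub* (0.6989), and just outside it *Tarsl2* (0.7003), *Magee2* (0.7018) and *Zscan30* (0.7080). Just above the level of 2 FPKM stood *Agbl3* (2.08), *Tfap2e* (2.17) and *Casc4* (2.24), and just below it, among genes that met the ratio, *Slc16a10* (1.95), *Wnt6* (1.85) and *Zfp433* (1.80).

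Enzymes that act on alcohols, aldehydes and foreign compounds were the most abundant of the 60 genes. *Adh7* (chromosome 3, 138196731 to 138232042), an alcohol dehydrogenase of surface epithelia that also oxidizes retinol, had an FPKM of 520.4, 519.8 and 508.5 in control samples and of 289, 299 and 335 in mutant samples. *Ptgr1* (chromosome 4, 58965590 to 58987131), which reduces prostaglandins and toxic alkenals, had 367, 403 and 413 in controls and 204, 236 and 238 in mutants. In both genes the 3 samples of a genotype were close to each other relative to the gap between the genotypes.

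*Ces1d* (chromosome 8, 93166072 to 93197804), a carboxylesterase that cleaves lipid and drug esters, had an FPKM of 136, 142 and 133 in control and of 58.9, 73.2 and 90.3 in mutant samples. *Gsta3* (chromosome 1, 21240585 to 21265575), a glutathione S-transferase, had 74.1, 78.0 and 78.7 against 39.0, 37.8 and 43.8. The control samples of both genes were close to each other, whereas the mutant samples of *Ces1d* spread over a wider range.

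*Gstm1*, another glutathione S-transferase, had a mean FPKM of 29.4 ± 2.85 (SD, n = 3) in controls and of 15.2 ± 1.82 (SD, n = 3) in mutants. Its transcripts share 18.9% of their 50-base windows with related genes and pseudogenes, among them *Gstm3*, so its level is less certain than that of the others. *Fmo5*, a flavin monooxygenase, stood at 55.1% of control, and *Ivd*, a mitochondrial dehydrogenase of leucine breakdown, at 60.1%. At the low end of the group were *Rimklb*, a peptide ligase (55.4% of a control mean of 3.02), and *Duox2*, an epithelial oxidase that makes hydrogen peroxide (39.7% of 2.51). *Duox2* shares 6.05% of its windows with *Duox1*, whose mean FPKM was 3.27 in controls and 3.31 in mutants. All 9 enzymes of the group lay between 39.7% and 60.1% of control.

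The annotation of the table placed 4 of these enzymes (*Adh7*, *Gsta3*, *Gstm1* and *Fmo5*) in the KEGG pathway of drug metabolism by cytochrome P450, which has 31 genes at the level threshold. Of the 42 genes of that pathway tested, 9 were called lower by edgeR and 1 higher (*Aldh1a3*), where 5.42% of all genes tested were called lower and 7.82% higher. The 5 called lower that the rule did not keep were *Gstm2*, *Gsto1*, *Adh1*, *Gstt3* and *Aldh3a1*. A list of 26 retinoid and xenobiotic enzymes that could be tested held 8 called lower and 4 called higher, beside the same 5.42% and 7.82% of all genes, with a median log2 fold change of -0.24. Without its 4 kept genes it held 4 lower and 4 higher with a median of -0.10. The 4 lower were *Gstm2* at -0.77 (standard error 0.14, adjusted p = 7.21e-03), *Gsto1* at -0.47 (0.093, 9.48e-03), *Adh1* at -0.47 (0.079, 4.43e-03) and *Aldh3a1* at -0.25 (0.072, 4.66e-02), all on the log2 scale from edgeR. *Gsto1* (16101 FPKM in controls), *Aldh3a1* (12918) and *Adh1* (986) were more abundant than the kept enzymes and had smaller log2 fold changes. *Akr1b8*, an aldo-keto reductase, rose from 3.95 ± 1.64 to 54.8 ± 9.48 FPKM (mean ± SD, n = 3, adjusted p = 3.01e-05 from edgeR).

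Of the 60 genes 3 belong to TNF and NF-κB signaling itself. *Tnf* (chromosome 17, 35199367 to 35202007), the cytokine that activates NF-κB and is also one of its targets, had an FPKM of 7.24, 6.62 and 6.20 in control samples and of 3.0, 2.27 and 0.77 in mutant samples. *Tnfaip3* (chromosome 10, 19000910 to 19015410), which encodes the ubiquitin-editing inhibitor A20 that shuts off TNF signaling, had 5.10, 4.72 and 5.05 against 3.12, 2.17 and 1.91. *Ripk2* (chromosome 4, 16122741 to 16163676), the kinase that links NOD receptors to NF-κB, had 9.48, 9.12 and 9.88 against 6.30, 6.27 and 6.25.

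By FPKM, mutant sample 1 was the highest and mutant sample 3 the lowest of the mutants in all 3 genes, whereas sample 1 was the lowest and sample 3 the highest mutant in 6 of the 9 enzymes each. The order in *Ripk2* does not hold in its counts, which were 280, 269 and 279 in mutant samples 1, 2 and 3. The order is not particular to these genes, since *Duox2* and *Rimklb* of the enzymes and *Stk26*, *Kcnv1* and *Myb* had it too. *Ripk2* was nearly equal in its mutant samples and *Tnf* spread widely, with a coefficient of variation of 56.5%. *Edn1*, the vasoconstrictor endothelin 1, is the third member of the KEGG TNF signaling pathway beside *Tnf* and *Tnfaip3*, with 10.6, 8.67 and 10.01 FPKM in controls and 5.97, 5.74 and 5.93 in mutants. Of the 96 genes of that pathway tested, 10 were called lower and 21 higher, beside 5.42% and 7.82% of all genes tested. The 10 include the 3 genes chosen for being lower, and the other 7 include the deleted *Rela* itself.

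The promoter of *Tnfaip3* is shown because it holds, next to the start site, a pair of matches to the κB site that NF-κB binds. From RefSeq on GRCm38.p6, the 250 bases before its start are chr10:19015411-19015660 on the minus strand, with the matches in capitals:

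Tnfaip3: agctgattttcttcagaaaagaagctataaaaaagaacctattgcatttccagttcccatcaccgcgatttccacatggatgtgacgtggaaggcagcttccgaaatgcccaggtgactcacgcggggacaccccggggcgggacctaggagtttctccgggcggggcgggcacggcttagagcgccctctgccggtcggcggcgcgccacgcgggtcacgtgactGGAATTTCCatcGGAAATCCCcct

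The first match, GGAATTTCC, begins 24 bases before the start and reads on the gene's strand, and the second reads as GGGATTTCC on the opposite strand and begins 12 bases before the start. The letters searched were GGNNTTTCC on both strands, in 250 bases before to 50 bases after each start, and GGAATTTCC and GGGATTTCC are forms of it that the same search counts again. Of the 60 genes 47 had a promoter in the table, and 5 of these (10.6%) held GGNNTTTCC, where 7.14% of the 7992 genes at the level threshold and 7.03% of all 13751 genes with a promoter did. A gene can have several windows: the 47 genes had 1.49 each on average and the 7992 genes 1.28. Per window the shares were 7.14% and 5.96%. Either narrower form was found in *Tnfaip3* alone (2.13% of 47), and in 0.363% (GGAATTTCC) and 0.538% (GGGATTTCC) of the 7992 genes. The other 4 genes with a match, printed with the bases on either side to show where these letters fall, are:

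Fetub (chr16:22918148-22918196, plus strand): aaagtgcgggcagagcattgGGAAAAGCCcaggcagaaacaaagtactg
Nr2f2 (chr7:70366770-70366818, minus strand): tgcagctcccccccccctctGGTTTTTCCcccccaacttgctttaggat
Shisa2 (chr14:59625213-59625261, plus strand): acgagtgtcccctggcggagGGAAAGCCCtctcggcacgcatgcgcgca
Tiam2 (chr17:3397054-3397102, plus strand): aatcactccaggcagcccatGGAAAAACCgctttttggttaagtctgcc

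The match of *Nr2f2* reads on the gene's strand and those of *Fetub*, *Shisa2* and *Tiam2* on the opposite strand. They begin 52, 214, 48 and 133 bases before the start, respectively, and the start of *Tiam2* is one inside the gene. A match describes letters and not a bound site, and a window without one says nothing of the factor. The promoters of the 47 genes held fewer CpG dinucleotides (median 13.7 against 21) and were under 50% GC in 21.3%, against 8.91% of the 7992 genes.

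A list of 34 known NF-κB target genes, 25 of which could be tested, held genes called in both directions, where 5.42% of all genes tested were called lower and 7.82% higher. Called lower were 4 genes, *Tnf* and *Tnfaip3* of the 60 and, with smaller differences, the inhibitor *Nfkbia* (27.9 ± 1.83 against 22.04 ± 1.17 FPKM, log2 fold change -0.34, adjusted p = 2.76e-02 from edgeR) and the mitochondrial superoxide dismutase *Sod2* (25.5 ± 0.28 against 20.9 ± 0.54, -0.29, adjusted p = 2.19e-02). Called higher were 9 genes: *Ptgs2*, *Lcn2*, *Il1b*, *Icam1*, *Bcl3*, *Cxcl1*, *Csf1*, *Rel* and *Nfkb1*. Only *Bcl3*, *Rel* and *Nfkb1* of these were above 5 FPKM in every control sample. *Ptgs2*, *Lcn2*, *Il1b*, *Icam1* and *Cxcl1* were under 1 FPKM in every control sample, and *Icam1* in every mutant sample too. *Il1b* was high mainly in mutant sample 1, with 4.19, 0.89 and 0.42 FPKM in mutant samples 1, 2 and 3. *Ptgs2*, the inducible cyclooxygenase, went from at most 0.03 FPKM in controls to 7.64, 1.51 and 6.48 in mutants. The median log2 fold change of the list was 0.26, and 0.44 without *Tnf* and *Tnfaip3*. Both medians include the genes that were under 1 FPKM in controls.

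**Figure D4:**
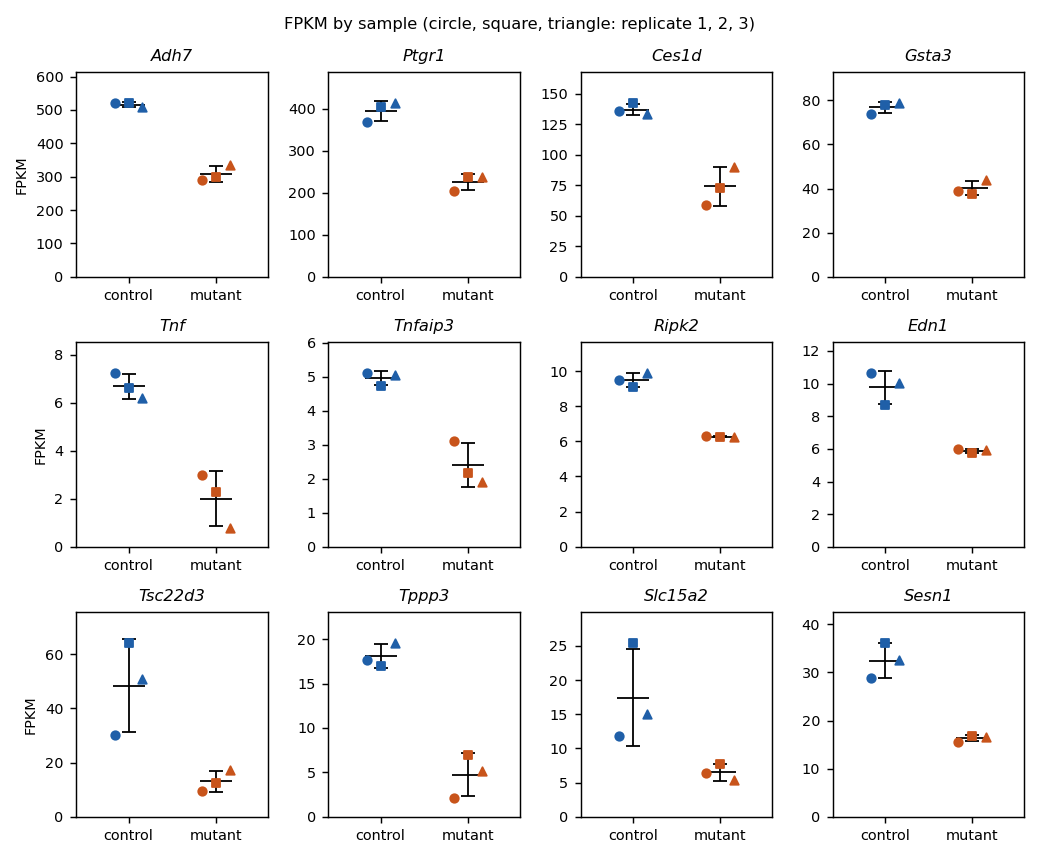
FPKM (y axes, each from 0) of 12 of the chosen genes in the 3 control samples (blue) and 3 mutant samples (orange), with circle, square and triangle for replicates 1, 2 and 3 and bars for the mean and SD. *Adh7*, *Ptgr1*, *Ces1d* and *Gsta3* vary little among controls, *Tsc22d3* and *Slc15a2* vary widely among controls, and *Tnf* and *Tnfaip3* are highest of the mutants in replicate 1, where *Ces1d*, *Ptgr1* and *Tppp3* are lowest.

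Transcriptional regulators made up 6 of the 60 genes. *Tsc22d3* (chromosome X, 140539528 to 140600522), a leucine zipper protein known as a glucocorticoid-induced gene, was the most abundant of them and had an FPKM of 30.0, 64.1 and 51.0 in control and of 9.58, 12.48 and 17.2 in mutant samples. The control values differed among themselves by more than the lowest of them differed from the highest mutant value. *Nr2f2*, an orphan nuclear receptor, had 34.6, 38.0 and 40.0 FPKM against 23.0, 24.2 and 23.6, a much tighter pair of groups. *Id4*, which blocks basic helix-loop-helix factors, stood at 50.5% of control, *Lmo2*, a LIM adaptor of blood and vessel cells, at 50.7%, *Myb*, a factor of progenitor cells, at 59.6% and *Tfap2e*, of the AP-2 family, at 58.1%. Their control means were 8.05, 3.69, 2.87 and 2.17 FPKM. Genes with a transcription factor family in the annotation were 5 of the 60 (8.33%), beside 7.45% of the 9867 genes.

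Ligands, receptors and adhesion molecules were 9 of the 60 genes and lay between 39.7% and 61.8% of control. *Pdyn*, the precursor of the opioid dynorphin, had an FPKM of 17.6, 16.9 and 18.03 in controls and of 6.15, 11.0 and 9.38 in mutants. *Itgb7*, the integrin β7 chain best known from lymphocytes, had 18.3, 19.4 and 22.7 against 12.46, 12.8 and 12.1.

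*Npr3*, the clearance receptor of natriuretic peptides, and *Fzd4*, a Wnt receptor, stood at 42.4% and 44.4% of control means of 6.73 and 4.17 FPKM. *Shisa2*, which holds Frizzled and FGF receptors in the cell, stood at 52.3%. *Fat4*, a giant cadherin of planar polarity, had 1.99, 3.0 and 1.96 FPKM in controls and 0.88, 1.15 and 0.73 in mutants. In *Npr3*, *Fzd4* and *Fat4* control sample 2 was well above the other two controls, and all 3 mutants lay below every control sample as the rule demands.

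The largest group was 10 intracellular signaling proteins, between 28.8% and 60.9% of control. *Kctd12*, an auxiliary subunit of GABA-B receptors, led it with 46.6, 41.3 and 41.3 FPKM against 21.9, 22.3 and 26.4, although 64.2% of its exon bases overlap another annotated gene. *Gng13*, a G protein γ subunit known from taste cells, had 6.49, 6.82 and 9.74 FPKM in controls and 1.47, 2.66 and 2.51 in mutants. Its counts were 49, 51 and 73 against 11, 20 and 19, and 51.6% of its exon bases overlap *Chtf18*, which was at 2.01 ± 0.28 FPKM in controls and 2.07 ± 0.36 in mutants.

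Regulators of small GTPases were *Arhgap24*, *Tiam2*, *Rerg* and *Rasl11b*, of which the last pair are themselves Ras-like proteins. *Arhgap24*, which switches off Rac, was at 31.9% of control (3.10, 3.34 and 2.62 against 0.63, 1.43 and 0.83 FPKM), and *Tiam2*, which switches Rac on, was at 55.3%. *Itpkb*, an inositol trisphosphate kinase, was at 47.3%, and *Pitpnm3*, of a family of phosphatidylinositol transfer proteins, at 53.3%. The kinases *Stk26* and *Sbk1* were at 60.3% and 56.6%. Mutant sample 1 was the lowest mutant in 8 of the 10 genes.

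Among 4 transporters and channels, *Slc15a2*, a proton-coupled peptide transporter, had an FPKM of 11.9, 25.4 and 14.98 in controls and of 6.42, 7.78 and 5.33 in mutants. *Slc29a1*, an equilibrative nucleoside transporter (chromosome 17, 45585200 to 45599603), had 13.7, 12.7 and 13.2 against 5.42, 6.04 and 7.40. *Abcg2*, an efflux pump for drugs and porphyrins that is used as a marker of limbal side population cells, had 14.5, 12.4 and 12.46 against 4.90, 7.53 and 6.57. *Kcnv1*, a silent potassium channel subunit, was at 53.4% of control, with an SD of 0.17 FPKM in controls and 0.031 FPKM in mutants. The widest controls were those of *Slc15a2*, where sample 2 stood above both other controls.

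Proteins of glycosylation, the Golgi and membranes were nearest to control, with a median of 61.0% of control over 6 genes. *St8sia6*, which adds sialic acid, had 32.7, 36.7 and 33.2 FPKM against 22.4, 22.8 and 21.5, and *A4galt*, which makes globo-series glycolipids, stood at 50.5%. *Gorasp1*, a stacking protein of the Golgi, *Svip*, an inhibitor of degradation at the endoplasmic reticulum, *Tlcd1*, a regulator of membrane lipids, and *Casc4*, a Golgi membrane protein, stood between 60.3% and 62.7%. *Gorasp1* shares 32.1% of its exon bases with *Wdr48* and *Tlcd1* 14.0% with *Rpl23a* and small RNAs.

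Of 4 cytoskeletal genes, *Tppp3* (chromosome 8, 105467492 to 105471422), a tubulin polymerization protein, had the smallest share of control of all 60, with 17.7, 17.0 and 19.6 FPKM in controls and 2.15, 6.91 and 5.11 in mutants. Its paralog *Tppp* had 14.3, 19.4 and 14.6 against 6.08, 9.97 and 7.99. *Fhl1*, a LIM domain protein known from muscle, was at 40.0% and *Agbl3*, a deglutamylase of tubulin, at 55.4%. In *Tppp3* the mutants differed among themselves more than the controls, with a coefficient of variation of 50.9%.

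The other 9 genes were of several kinds. *Sesn1* (chromosome 10, 41810574 to 41908436), a sestrin that holds back mTORC1 and is induced by p53 and FOXO factors, had 28.8, 36.1 and 32.5 FPKM in controls and 15.6, 16.9 and 16.6 in mutants. *Eva1a*, an autophagy and apoptosis gene, *Tmem218*, a cilium protein, and *4930426D05Rik*, annotated to protein ubiquitination, stood at 49.1%, 54.6% and 29.3%. *Fetub*, a protease inhibitor, was at 56.6%, the rhomboid protease *Rhbdl3* at 62.0% and the metalloprotease *Adamts18* at 29.1%, with mutant values of 0.78, 0.22 and 1.22 FPKM. The RNA-binding genes *Rbpms2* and *Rbm20* were at 54.2% and 61.2%, and 12.4% of the windows of *Rbpms2* are shared with *Gm3470*. *Rbm20* (53660989 to 53867083) was the only one of the 60 genes on chromosome 19, which also holds *Rela*.

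KEGG pathways were given for 26 of the 60 genes (43.3%, beside 40.2% of the 9867 genes), and no pathway held more than 6 of them. The general entry of metabolic pathways held 6, drug metabolism by cytochrome P450 held 4, and drug metabolism by other enzymes, xenobiotic metabolism, TNF signaling, NOD-like receptor signaling and PI3K-Akt signaling held 3 each. Among GO processes, signal transduction was given for 9 genes (15%, beside 3.72%), positive and negative regulation of transcription by RNA polymerase II for 7 and 6 (11.7% and 10%, beside 7.08% and 5.6%), development of multicellular organisms for 6 (10%, beside 4.3%), apoptotic process for 5 (8.33%, beside 4.21%), oxidation-reduction for 5 (8.33%, beside 4.38%), and the MAPK cascade and G protein-coupled receptor signaling for 4 each (6.67%, beside 0.75% and 1.1%). Over all genes tested, signal transduction held 37 genes called lower and 44 called higher of 513, and oxidation-reduction held 59 lower and 42 higher of 537, beside 5.42% lower and 7.82% higher of all genes. Beside the same shares, apoptotic process held 28 lower and 60 higher of 491, and development 44 and 53 of 573. Positive regulation of transcription held 41 lower and 80 higher of 831, and negative regulation 34 and 49 of 670. The MAPK cascade held 9 and 11 of 88, and G protein-coupled receptor signaling 13 and 13 of 180. Of the KEGG pathways, metabolic pathways held 84 lower and 92 higher of 1019, NOD-like receptor signaling 10 and 17 of 136, and PI3K-Akt signaling 16 and 34 of 236. Xenobiotic metabolism held 8 lower and 1 higher of 45, and drug metabolism by other enzymes 9 and 7 of 66. All these lower counts include genes chosen for being lower. Without the 60 genes, those of signal transduction and oxidation-reduction were 28 and 54. The 54 still hold *Aldh1a1*, *Cyp26b1*, *Cyp2b19*, *Cyp4f15* and *Cyp4a12a*, which met the thresholds and were left out by name.

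By cell component, 31 of the 60 genes (51.7%) were annotated to the membrane, beside 34.9% of the 9867 genes, and 5 (8.33%, among them *Abcg2* and *Duox2*) to the apical plasma membrane, beside 1.81%. The nucleus was given for 16 genes (26.7%, beside 41.8%) and the mitochondrion for 3 (5%, beside 13.5%). These shares describe the annotation of genes chosen on the same samples and were not tested.

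**Figure D5:**
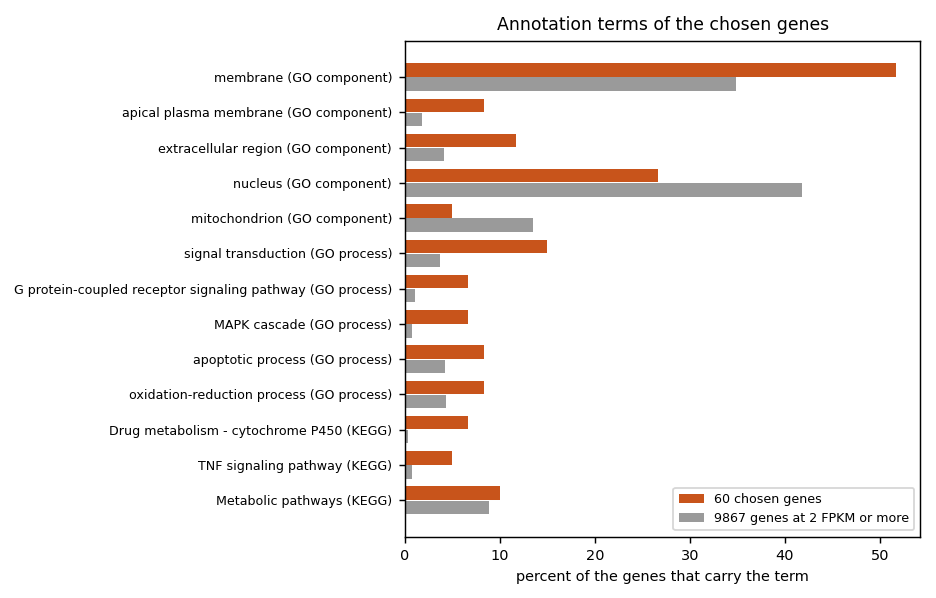
Percent of genes that carry each of 13 annotation terms (x axis), for the 60 chosen genes (orange) and the 9867 genes with a mean control FPKM of at least 2 (grey). Membrane and signaling terms are more frequent among the chosen genes (51.7% against 34.9% for membrane), and nucleus and mitochondrion are less frequent (26.7% against 41.8% and 5% against 13.5%).

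The 60 genes were spread over the genome, with at most 6 on a chromosome (chromosome 2, 10% of the 60 beside 7.98% of the 9867 genes) and none on chromosome 12. The closest pair, *Casc4* and *Duox2*, lay 343026 bases apart, and the next, *Tnfaip3* and *Myb*, 2.11 Mb apart.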

How the data were processed

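The authors depleted rRNA, sequenced single-end reads, filtered them with SOAPnuke, aligned them with Bowtie2 2.2.5 and estimated expression with RSEM 1.2.12; the labels name a TruSeq kit and the build mm9, whereas the coordinates in the table are those of GRCm38. The authors deposited expected counts per gene and sample, which divide reads that fit several genes and are not normalized. The authors also deposited FPKM values per sample, scaled by transcript length and sample total. Columns with the authors' own fold changes, p-values, q-values and group averages were not used.

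Samples were grouped by the genotype in the labels. The 60 genes were selected on the deposited FPKM values. Expected counts were rounded and tested with edgeR 4.0.16 in R 4.3.3 (TMM scaling, filterByExpr with a minimum count of 10 and total of 15, quasi-likelihood test, Benjamini-Hochberg adjustment over 12667 genes), after the procedure was tested on simulated data. Standard errors were taken as the absolute log2 fold change divided by the root of the F statistic. Alternatives were DESeq2 1.42.0, limma 3.58.1 on log2(FPKM + 1) and log2(FPKM + 0.1), other scalings and filters, a replicate block, each sample left out and other thresholds of the rule. Reading the pairs of samples left out was an alternative chosen after seeing the data.

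The rule, the 9 pathway lists, the 10 marker lists and the roles were chosen with earlier results of these data known. Of the 60 genes, 2 are counted but not reported by name here. The genes named are the rest of the 60, grouped by role, with sample values for the most abundant, the most reduced, those with the least spread and the leading genes of each group, and those at the thresholds. The other genes given values belong to a listed pathway or marker list or share sequence with one of the 60. Promoters are RefSeq windows, and shared 50-base windows and exon overlap were counted in GENCODE transcripts of GRCm38.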

Additional observations from a re-analysis of the deposited data

How the results depend on the processing

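The number of genes kept follows the thresholds: a ratio of at most 0.6 kept 14 and of at most 0.8 kept 165, a level of at least 1 or 5 FPKM kept 78 or 41, and using TMM-scaled CPM or FPKM rescaled to a median ratio of 1 kept 54 (50 of the 60) or 57 (55 of the 60). TMM-scaled CPM lost *Ripk2*, *Itgb7*, *Nr2f2*, *Rbm20*, *Rimklb*, *Fhl1*, *Tppp*, *Tiam2*, *Fetub* and *Tlcd1*. Rescaled FPKM lost *Itgb7*, *Nr2f2*, *Rbm20*, *St8sia6* and *Tppp*. Leaving out a sample loosens the rule by construction and gave 68 to 100 genes, with 97 without control replicate 1 and 100 without mutant replicate 3; 59 or all 60 of the genes were among them each time. All 60 were called lower at an adjusted p of at most 0.05 under each edgeR and limma setting with 6 samples and 59 by DESeq2, which missed *Adamts18*, and 57 to 60 with a sample left out, where *Adamts18*, *Tfap2e* and *Agbl3* lost their call in at least 1 fit. Of 840 single values under the alternatives, 0 changed direction and 7 lost the call. The rule put every mutant sample below every control sample, so these directions and calls were nearly fixed in advance and support nothing. The stricter call (adjusted p of at most 0.001, fold of at least 2) rests on the method: beside 2 of the 60 in edgeR it gave 18 with DESeq2, 11 with no filter, and with limma 1 at a pseudocount of 0.1 and 0 at a pseudocount of 1, where all 60 had an adjusted p of at most 0.05, and 0 to 4 with a sample left out. The median log2 fold change ran from -0.93 to -0.83 with a sample left out. Over all genes tested, the calls at 0.05 with a sample left out ran from 283 to 812 lower (425, 283 and 327 without control replicate 1, 2 and 3, and 430 without mutant replicate 2) and from 574 to 1057 higher (574 without control replicate 2). Samples that share a replicate number had little common deviation: deviations from the group means correlated at 0.019, 0.048 and -0.046 in numbers 1, 2 and 3. This cannot show whether the mice were paired. A replicate block left all 60 called at 0.05, 6 at the stricter call, and 552 genes lower and 867 higher over all. Depth limits *Gng13*, *4930426D05Rik*, *Agbl3* and *Tfap2e*, the genes under 100 counts in a control sample. The cause of these shifts was not tested.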

Other observations

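The opposite rule, a highest control FPKM of at most 0.7 times the lowest mutant FPKM with no gene left out by name, kept 157 genes at a mean control FPKM of at least 2 and 280 genes at a mean mutant FPKM of at least 2. *Krt12*, the keratin of the differentiated corneal epithelium, had a mean FPKM of 19694 ± 1301 (SD, n = 3) in control and 18270.4 ± 1148 in mutant samples (log2 fold change -0.15, adjusted p = 0.263 from edgeR).

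None of 19 circadian clock genes was among the 60, yet 5 of the 18 tested were called lower by edgeR (among them *Tef* and *Per3*) and 1 higher (*Bhlhe40*), where 5.42% of all genes tested were called lower and 7.82% higher. *Tef*, an output factor of the clock, had 75.0, 89.1 and 79.6 FPKM in controls and 40.6, 50.01 and 61.7 in mutants. Beside the same shares of all genes, the Wnt list had 5 lower of 26 (*Fzd4* of the 60, *Wnt6*, *Wnt10a*, *Lgr4* and *Fzd7*) and 2 higher, the TGF-β and BMP list 2 lower of 18 (*Id4* of the 60 and *Id2*) and 5 higher, and the epithelial transcription factors 2 lower of 19 (*Nr2f2* of the 60 and *Foxc1*) and 3 higher. Beside these shares too, ion and solute transport had 1 lower and 6 higher of 20, the cell cycle 2 and 2 of 17, and Notch 1 and 1 of 9. Of *Id4* and *Id2*, related inhibitors of basic helix-loop-helix factors, *Id2* was the more abundant and went from 177 ± 23.2 to 106 ± 8.33 FPKM (log2 fold change -0.75, adjusted p = 2.49e-03 from edgeR). Summed marker levels of melanocytes were 4.43 to 5.23 FPKM in controls and 4.80 to 5.50 in mutants, of nerve 70.9 to 78.2 and 76.7 to 78.0, of muscle 0.66 to 1.90 and 1.61 to 1.97, of red blood cells 3.18 to 4.33 and 2.28 to 2.67, of stroma 2.99 to 3.40 and 2.13 to 5.74, of vessels 1.03 to 2.02 and 0.99 to 1.26, and of corneal endothelium, lens and retina 77.6 to 94.8 and 49.2 to 94.6. The stroma sum, mostly *Pdgfra* in controls, combines the fall of *Pdgfra* with the rise of *Dcn*.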
